A study of Mus musculus with 9 samples.

Results

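The genes for the subunits of glutamate and GABA receptors were followed in brain RNA from 9 mice. Members were taken by gene symbol, covering the AMPA, NMDA, kainate and delta subunits, the metabotropic glutamate receptors and the subunits of the GABAA and GABAB receptors, without Gabra6. Of 20731 symbols in the count table, 42 matched, and 41 had at least 10 counts in at least 3 libraries. Grm6, which is known from retinal bipolar cells, fell under this limit, with 2 counts in 1 library and 0 in the other 8. The 41 genes comprised 18 ionotropic glutamate receptor subunits, 7 metabotropic glutamate receptors, 14 GABAA subunits and 2 GABAB subunits. All 41 were among the 14746 genes tested.

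The mice were male C57BL/6J animals aged 8 to 10 weeks, with 3 mice in each group and 1 library per mouse. Every mouse had a thrombosis of the superior sagittal sinus induced with ferric chloride (cerebral venous sinus thrombosis, CVST), so no group without thrombosis was analysed here. Ligation of the deep cervical lymph nodes was added in the CVST+Ligation mice and in the 4-PBA mice. The latter also received 4-phenylbutyric acid (4-PBA), which inhibits endoplasmic reticulum stress, at 100 mg/kg. The methods date this injection to 30 min before modelling, whereas the description of the data set dates it after ligation. Control mice were given solvent, per the methods. Tissue was taken on day 2. The sample labels give it as brain with no region, and the description of the data set gives cortex. By their labels CVST+Ligation and CVST differ in the ligation, 4-PBA and CVST+Ligation in the drug, and 4-PBA and CVST in both. The 3 comparisons share mice, so their values for a gene are given side by side and are not independent of each other.

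Glutamate is the main excitatory transmitter of the brain. It opens the AMPA, NMDA and kainate receptors, which are ion channels assembled from 4 subunits, and it activates metabotropic receptors, which signal through G proteins. GABA, the main inhibitory transmitter, opens the chloride channel of the GABAA receptor and activates the GABAB receptor, a G protein-coupled dimer. Which subunits a neuron expresses sets the kinetics, the permeability and the drug sensitivity of its receptors, and many subunits are known to be restricted to particular brain regions.

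Each library held 18100739 to 25091498 counts, and a floor of 3 counts lay between 0.114 and 0.163 CPM (the usual unit of a gene's count relative to its library total). Totals were scaled by the TMM method. The floor covers counting error only. A gene was called at an unadjusted p below 0.05 in edgeR's quasi-likelihood test. The p adjusted by Benjamini-Hochberg over all genes tested is given beside it. The p-values measure the spread between these mice. In bulk tissue, fewer cells of a type and less RNA per cell cannot be told apart.

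The libraries differed in genes that mark brain regions. CVST+Ligation replicate 2 stood apart from the other 8 libraries in cerebellar and serotonin neuron genes. It held 4101 counts of Gabra6, the GABAA subunit of cerebellar granule cells, against 119 counts in CVST+Ligation replicate 3 and 0 in the remaining libraries. The summed level of 16 cerebellar genes was 2151 CPM in this library and 174 to 325.5 CPM in the others. It also held 2631 counts of Tph2 and 1980 counts of Slc6a4, which are genes of serotonin neurons. Results that rest on the CVST+Ligation group are therefore also given without this library where a call depends on it. CVST replicate 3 was the most extreme library over all genes tested, with the highest value of the 9 for 21.3% of them and the lowest for 20.4%, against 17.3% and 16.6% in CVST+Ligation replicate 2. Region lists also differed between whole groups. The midbrain and brainstem sum was 21.7 to 25 CPM in the CVST mice and 183.5 to 524 CPM in the CVST+Ligation mice. The striatal sum was 1161 to 2315 CPM and 303.5 to 615.3 CPM in the same order. The hypothalamic sum was 320.9 to 643.8 CPM in the 4-PBA mice and 12.4 to 73.5 CPM in the others. These differences remain without CVST+Ligation replicate 2. Other region lists are given beside results they move with, and their part in those results was not tested.

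In the comparison of CVST+Ligation with CVST, 7 of the 41 receptor genes rose and 0 fell, which is 17.1% of the members. Over all genes tested, 9.64% were called, 5.47% as higher and 4.18% as lower. The genes that rose included Gria4, Grin2c, Gabrg1, Gabre and Gabrq. The log2 fold changes of all 7 lay between those of Gria4 (0.69) and Gabrq (2.65). None passed an adjusted p below 0.05, which 0.0203% of all genes did, and the lowest adjusted p among the members was 0.349. The median log2 fold change of the members was 0.24, against 0.0021 over all genes tested. For 7 members every CVST+Ligation value exceeded every CVST value, and for 0 members the reverse held. The groups did not overlap for 13.8% of all genes, 6.61% as higher and 7.21% as lower.

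Which genes were called depended on CVST+Ligation replicate 2. This library was the lowest of the 9 for 15 of the 41 members (36.6%), compared with 16.6% of all genes tested. Without it, 8 members rose and 1 fell, against 8.07% of all genes called, 4.65% as higher and 3.42% as lower. Gabrg1 and Gabrq were called both with and without it, whereas Gria4, Grin2c and Gabre were called only with it. Gria1, Gria2, Gria3, Grm5 and Gabra2 rose without it, and Gabrd fell. Without CVST replicate 3, 6 members rose and 4 fell, against 10.2% of all genes called, and 5 of the 7 genes kept their call.

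In the comparison of 4-PBA with CVST+Ligation, Gabrg1 and Gabre rose and Grin1 fell. These 3 genes are 7.32% of the members, against 3.23% called over all genes, 1.81% as higher and 1.42% as lower. The median log2 fold change of the members was -0.20, with 32 of 41 values below 0, against -0.017 over all genes. The lowest adjusted p among the members was 1, and 0% of all genes passed the adjustment. The count depended on single mice. It was 13 without CVST+Ligation replicate 2, of which 4 rose and 9 fell, against 10% of all genes called, 5.37% as higher and 4.64% as lower. Those that rose were Grik1, Gabrg1, Gabre and Gabrq, and those that fell were Gria1, Gria2, Gria3, Grin1, Grik5, Grm2, Gabra2, Gabra5 and Gabbr2. The count was 0 without 4-PBA replicate 2 and 1 without CVST+Ligation replicate 3. Without CVST+Ligation replicate 1 it was 2, and none of the 3 genes named above was among them. For these latter fits the share of all genes called is not given here, so their counts cannot be read against it.

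In the comparison of 4-PBA with CVST, 4 receptor genes rose and 2 fell. These 6 genes are 14.6% of the members, a share near the 15.4% called over all genes, 8.07% as higher and 7.33% as lower. Grik1, Gabrg1, Gabre and Gabrq rose, and Grin1 and Grik5 fell. No member passed the adjustment over all genes with edgeR, which 0.122% of all genes did, and the lowest adjusted p was 0.0518, for Gabrg1. Without CVST replicate 3, 5 rose and 4 fell, against 16.3% of all genes called, and 3 of them passed the adjustment. With DESeq2, 5 members passed it. The median log2 fold change of the members was -0.057, against -0.0084 over all genes. For 7 members the 4-PBA values all lay above the CVST values and for 2 all below, and the groups did not overlap for 23.7% of all genes, 12.3% as higher and 11.5% as lower.

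**Figure D1:**
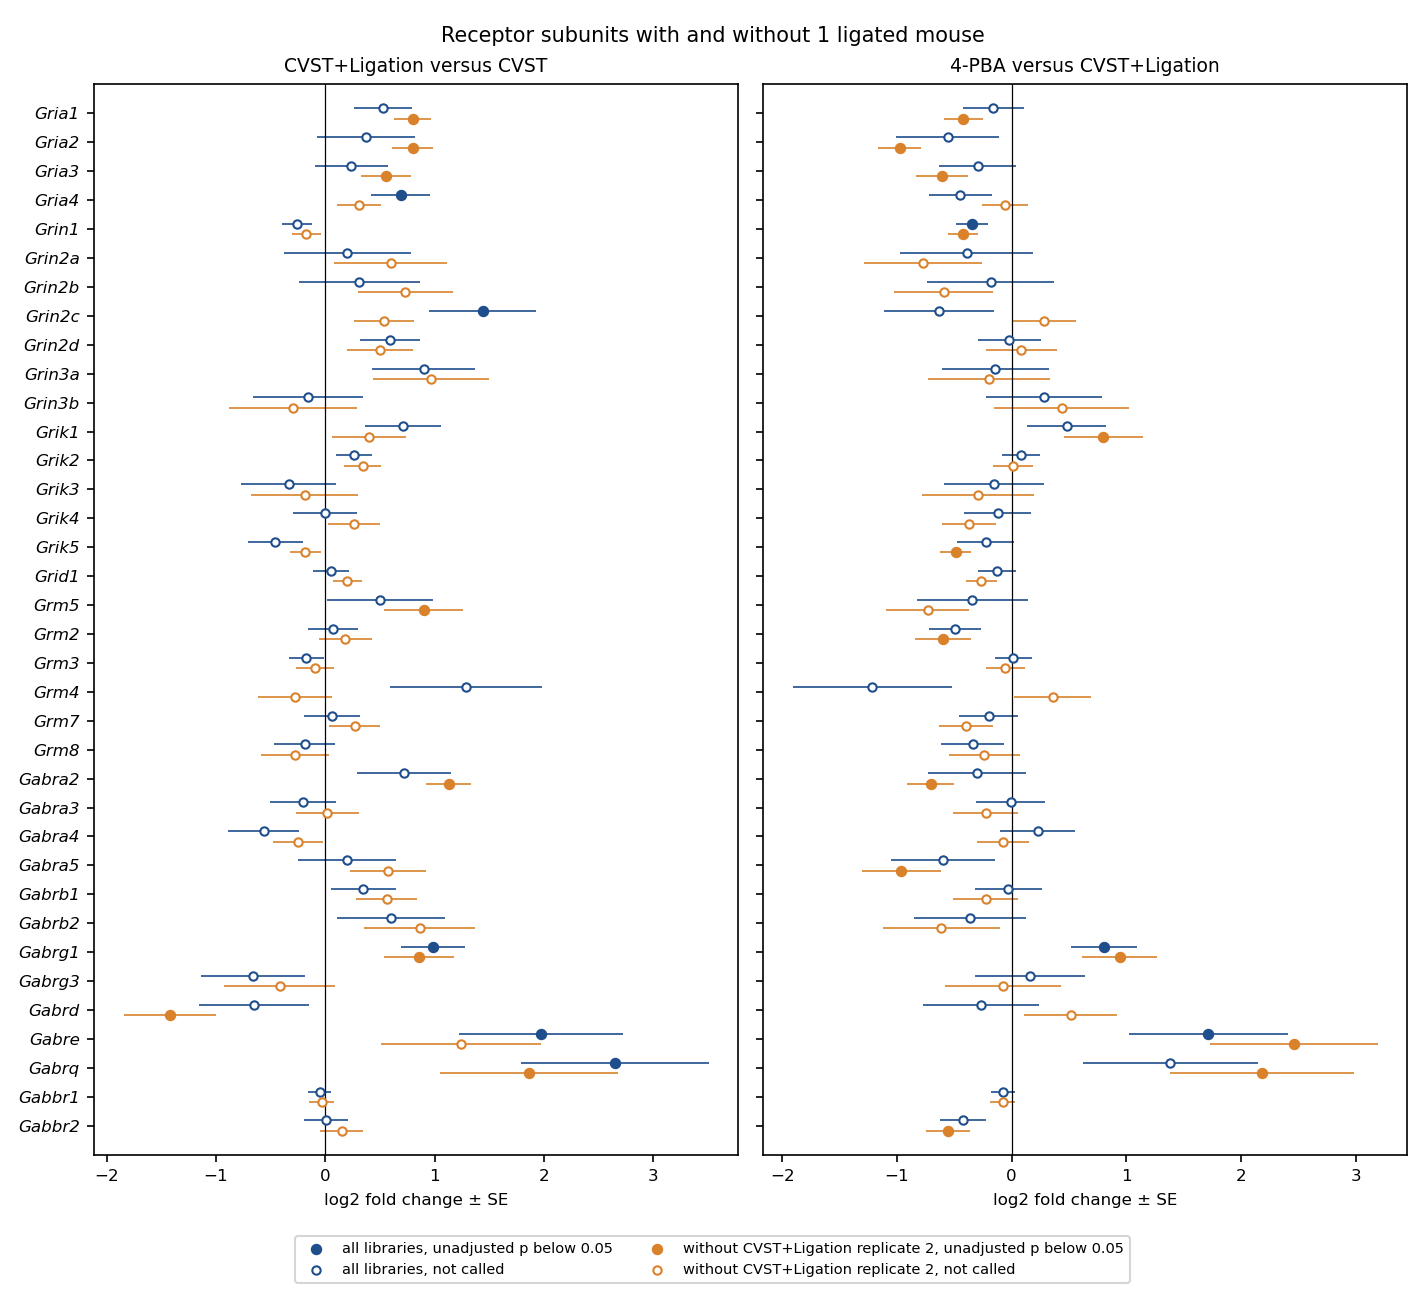
Log2 fold change (x axis) of 36 of the 41 receptor genes (rows) in the comparisons of CVST+Ligation with CVST and of 4-PBA with CVST+Ligation; points are edgeR estimates, bars are 1 SE, and filled points have an unadjusted p below 0.05. Blue uses all libraries and orange leaves out CVST+Ligation replicate 2, which moved Gria2 from 0.37 to 0.80 on the left and Grin2c from 1.44 to 0.54.

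The AMPA receptors carry most fast excitatory transmission. Compared per 1000 bases of coding length, Gria1 was the most abundant AMPA subunit gene, with a mean of 165.2 CPM per 1000 bases, and Gria3 the least, with 24.2. Gria1 stood at 412.6, 336.5 and 380.8 CPM in the CVST mice. It was 730.3, 316.2 and 581.7 CPM in the CVST+Ligation mice, and 575.9, 426 and 456 CPM in the 4-PBA mice. CVST+Ligation replicate 2 had the lowest Gria1 value of all 9 mice, and the other 2 mice of its group had the highest values. With all libraries the log2 fold change of Gria1 in CVST+Ligation was 0.53 ± 0.27 (SE), which was not called (unadjusted p = 0.0762, adjusted p = 0.555). Without that library it was 0.80 ± 0.17 (unadjusted p = 0.0011, adjusted p = 0.327), and that of 4-PBA against CVST+Ligation went from -0.16 to -0.42 ± 0.17 (adjusted p = 0.46) and was called.

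Gria2, whose edited form makes AMPA receptors impermeable to calcium, showed the same split within the group. It stood at 220.4, 42.8 and 161.2 CPM in the CVST+Ligation mice, against 110.7, 123.9 and 94.1 CPM in the CVST mice. The 4-PBA mice had 112, 85.6 and 90.9 CPM. With all libraries neither comparison of Gria2 with the CVST+Ligation group was called. Without replicate 2 the log2 fold change was 0.80 ± 0.19 (SE, adjusted p = 0.342) for CVST+Ligation against CVST, and -0.98 ± 0.19 (adjusted p = 0.268) for 4-PBA against CVST+Ligation. Gria3 gave 0.56 and -0.61 in the same comparisons without this library.

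Hippocampal genes were counted in the comparisons in which Gria1, Gria2, Gria3, Grm5, Gabra2 and Gabra5 were called. Counts in this and the later lists are to be read against the shares of all genes called. These were 9.64% in CVST+Ligation against CVST, 3.23% in 4-PBA against CVST+Ligation and 15.4% in 4-PBA against CVST. Without CVST+Ligation replicate 2 the first share was 8.07% and the second 10%. Of 14 hippocampal genes, 3 rose and 1 fell in CVST+Ligation against CVST (28.6%). Without CVST+Ligation replicate 2, 4 rose and 0 fell (28.6%), with a median log2 fold change of 1.04. In 4-PBA against CVST+Ligation 0 rose and 1 fell (7.14%), and 0 rose and 2 fell without that library (14.3%), with a median of -0.60. Between 4-PBA and CVST 2 rose and 0 fell (14.3%), a share near that of all genes. Their sum was 605.9, 401.4 and 892.1 CPM in the CVST mice, 903.1, 469.4 and 794.8 CPM in the CVST+Ligation mice, and 569.6, 734.9 and 425.6 CPM in the 4-PBA mice. CVST replicate 3 had a sum near those of CVST+Ligation replicates 1 and 3. Among the CVST mice it had the lowest Gria2, Gria3 and Grm5 values, the middle Gria1 value and the highest Gabra2 and Gabra5 values. The part of this list in these results was not tested.

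Gria4 differed from the other AMPA genes in the place of this library. It stood at 69.8, 78.6 and 56.2 CPM in the CVST mice, at 84, 160.4 and 85.6 CPM in the CVST+Ligation mice, and at 98.6, 80 and 63.5 CPM in the 4-PBA mice. Its highest value was that of CVST+Ligation replicate 2, and the CVST and CVST+Ligation values did not overlap. Its log2 fold change of 0.69 ± 0.27 (SE, unadjusted p = 0.031, adjusted p = 0.465) became 0.31 ± 0.20 without this library (adjusted p = 0.733) and was then not called. The call held under 12 of 16 alternatives, and those that lost it included the fits without CVST replicate 1 and without CVST replicate 3. The share of Gria2 in the 4 AMPA genes, per coding length, was 16.2% to 20.2% in the CVST mice and 13.1% to 14% in the 4-PBA mice. In the CVST+Ligation mice it was 19.6%, 7.75% and 17.7%. The CVST and 4-PBA shares did not overlap, but the smallest p that an exact permutation test of 3 mice against 3 allows is 0.1, and the shares were not tested.

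NMDA receptors need the subunit of Grin1 in every channel, where it binds glycine, together with glutamate-binding subunits encoded by Grin2a to Grin2d. Grin1 was the most abundant NMDA subunit gene, with a mean of 193 CPM per 1000 bases, second among the 41 members. It stood at 769.7, 685.1 and 597.3 CPM in the CVST mice. The CVST+Ligation mice had 588.6, 497.4 and 626.4 CPM, and the 4-PBA mice 476, 427.4 and 443.8 CPM. All 3 of the 4-PBA values lay below the 6 other values. In 4-PBA against CVST the log2 fold change was -0.61 ± 0.14 (SE, unadjusted p = 0.00138, adjusted p = 0.0855). For 4-PBA against CVST+Ligation it was -0.35 ± 0.14 (unadjusted p = 0.0302, adjusted p = 1), and for CVST+Ligation against CVST it was -0.26 ± 0.14 (adjusted p = 0.569), which was not called. The fall against CVST was called under all 16 alternatives, with log2 fold changes from -0.71 to -0.51 and adjusted p from 0.0035 to 0.285. The fall against CVST+Ligation was called under 10 of 16 and lost under 6. The latter included the fits without CVST+Ligation replicate 1 or 3 and without 4-PBA replicate 2 or 3.

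Lists of neuronal and cortical genes were counted in the same comparisons as Grin1. Of 12 genes of neurons in general, 2 fell and 1 rose in 4-PBA against CVST (25%, against 15.4% of all genes), with a median log2 fold change of -0.19. Their summed level was 6187 to 7130 CPM in the CVST mice and 5063 to 6334 CPM in the 4-PBA mice. Against CVST+Ligation, 2 of them fell in the 4-PBA group, and 4 without CVST+Ligation replicate 2. In CVST+Ligation against CVST 2 of them fell and 0 rose, and 2 fell and 1 rose without that library. Of 16 cortical genes, 9 fell and 0 rose in 4-PBA against CVST (56.2%), and 2 fell in 4-PBA against CVST+Ligation (7 without that library). In CVST+Ligation against CVST 7 fell and 1 rose (50%), and 4 fell and 1 rose without that library. Their sums were 2843 to 3154 CPM in the CVST mice, 969.9 to 2435 CPM in the CVST+Ligation mice and 1098 to 1443 CPM in the 4-PBA mice. The part of these lists in the fall of Grin1 was not tested.

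Grin2c, an NMDA subunit gene known from cerebellar granule cells and astrocytes, stood at 12.9, 25 and 23.9 CPM in the CVST mice. The CVST+Ligation mice had 32.4, 108 and 27.3 CPM, and the 4-PBA mice 41.1, 34.5 and 32.8 CPM. All ligated mice, with or without 4-PBA, had more than every CVST mouse, and CVST+Ligation replicate 2 had the highest value. The log2 fold change of CVST+Ligation against CVST was 1.44 ± 0.49 (SE, unadjusted p = 0.0153, adjusted p = 0.405) with this library and 0.54 ± 0.27 (adjusted p = 0.674) without it. The call was also lost without CVST replicate 1. Grin2c made up 22.2% to 42.9% of the 4 Grin2 genes per coding length in the CVST mice, 43.3% to 46% in the 4-PBA mice, and 32%, 75.5% and 38.2% in the CVST+Ligation mice. Grin2a and Grin2b, the main Grin2 genes of the adult forebrain, were at their lowest in CVST+Ligation replicate 2, with shares of 3.63% and 2.68%. Grin2a, Grin2b, Grin2d, Grin3a and Grin3b were called in none of the 3 comparisons with all libraries. Grin3b had the lowest level of all members, with a mean of 0.601 CPM per 1000 bases.

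**Figure D2:**
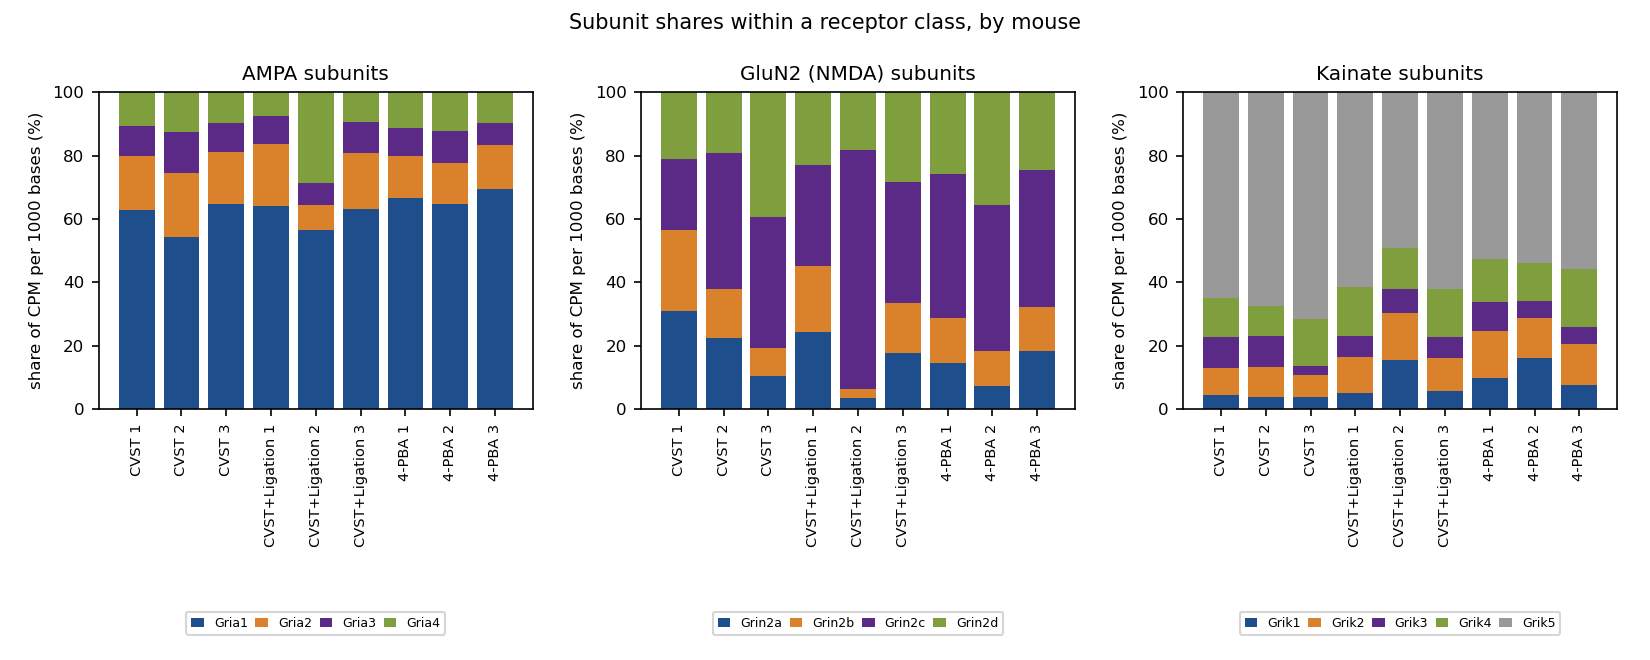
Share (y axis, percent of CPM per 1000 bases of coding length) of each subunit gene within the AMPA, Grin2 and kainate receptor genes, with 1 stacked bar for each of the 9 mice. CVST+Ligation replicate 2 has the largest Grin2c share (75.5%) and the smallest Gria2 share (7.75%).

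Among the kainate receptor genes, Grik1 to Grik3 encode subunits that can form channels by themselves, and Grik4 and Grik5 encode high-affinity partners. Grik1 stood at 18.9, 14.4 and 17.1 CPM in the CVST mice, at 21.5, 38.2 and 22.9 CPM in the CVST+Ligation mice, and at 33.9, 58.5 and 22.5 CPM in the 4-PBA mice. Each ligated mouse exceeded each CVST mouse. Against CVST, the 4-PBA group had a log2 fold change of 1.19 ± 0.35 (SE, unadjusted p = 0.00699, adjusted p = 0.15), and it was called under all 16 alternatives. That of CVST+Ligation against CVST was 0.71 ± 0.35 (adjusted p = 0.548), and 0.40 ± 0.34 (adjusted p = 0.793) without CVST+Ligation replicate 2, neither of them called. For 4-PBA against CVST+Ligation it was 0.48 ± 0.34 and not called, and 0.80 ± 0.35 (adjusted p = 0.492) and called without that library. Grik1 made up 3.77% to 4.33% of the 5 kainate genes per coding length in the CVST mice, 5%, 15.4% and 5.87% in the CVST+Ligation mice and 7.8% to 16.2% in the 4-PBA mice.

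Grik5, the most abundant kainate receptor gene with a mean of 75.1 CPM per 1000 bases, moved the opposite way in 4-PBA against CVST. It stood at 291.1, 261.9 and 333.6 CPM in the CVST mice, at 271.8, 125.5 and 249.3 CPM in the CVST+Ligation mice, and at 187.4, 199.4 and 165.5 CPM in the 4-PBA mice. The 4-PBA values lay below all CVST values. The log2 fold change was -0.68 ± 0.25 (SE, unadjusted p = 0.0229, adjusted p = 0.236). The call held under 12 of 16 alternatives. Those that lost it included the fits without CVST replicate 3, without 4-PBA replicate 1 and without 4-PBA replicate 3. Against CVST+Ligation, the 4-PBA value was -0.23 ± 0.25 and not called, and -0.49 ± 0.14 (adjusted p = 0.355) and called without CVST+Ligation replicate 2. Grik2, Grik3 and Grik4 were called in no comparison of all libraries, with log2 fold changes from -0.49 to 0.34.

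Grid1, a delta subunit gene, encodes a protein that shares the sequence of the glutamate receptors and binds cerebellins at synapses. It stood at 90.5, 84 and 92.7 CPM in the CVST mice, at 103, 72.2 and 102.3 CPM in the CVST+Ligation mice and at 94.5, 87.2 and 72.4 CPM in the 4-PBA mice. The groups overlapped, and Grid1 was called in no comparison of all libraries.

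Genes of the cerebellum moved with Gria4 and Grin2c. Of 14 cerebellar genes tested, 12 rose in CVST+Ligation against CVST with all libraries and 7 without CVST+Ligation replicate 2. In the CVST mice the sum of all 16 on the list was 174 to 272.8 CPM and in the 4-PBA mice 223 to 325.5 CPM. Gabra6 was at 0 counts in every CVST and every 4-PBA mouse. Fat2, a gene of cerebellar granule cells, had 7619 counts in CVST+Ligation replicate 2 and 0 to 224 counts elsewhere. Of 12 astrocyte genes, 4 rose and 0 fell in the same comparison, and 0 rose and 1 fell without this library. Their sum was 2141 to 3310 CPM in the CVST mice and 2531 to 4141 CPM in the CVST+Ligation mice, with the highest value in replicate 2. The part of these lists in the rise of Gria4 and Grin2c was not tested.

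The metabotropic receptors fall into group I, which signals through Gq, and groups II and III, which lower cyclic AMP. Grm5, a group I gene, stood at 65.1, 47.1 and 28.8 CPM in the CVST mice and at 109.2, 24 and 66.5 CPM in the CVST+Ligation mice. It was not called with all libraries. It was called without replicate 2, with a log2 fold change of 0.90 ± 0.36 (SE, adjusted p = 0.575).

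Grm3, the leading group II gene, stood at 63.1, 82.1 and 60.9 CPM in the CVST mice, at 67.1, 53.7 and 61.8 CPM in the CVST+Ligation mice and at 65, 66.2 and 53.2 CPM in the 4-PBA mice. Grm7, the leading group III gene, stood at 99.8, 60.5 and 58.5 CPM, at 81, 52.4 and 95 CPM and at 75.1, 64.4 and 59.4 CPM in the same order. The groups overlapped for both genes, and neither was called with all libraries. Grm4, a group III gene of cerebellar granule cells, stood at 141.5 CPM in CVST+Ligation replicate 2 and between 15.9 and 37.1 CPM in the other 8 mice. Its log2 fold change of 1.28 in CVST+Ligation was not called. Without that library it was -0.28 and not called. The presynaptic group II gene Grm2 stood at 19.6, 18.4 and 30.5 CPM in the 4-PBA mice and at 30.9, 26.6 and 39 CPM in the CVST+Ligation mice. It was not called with all libraries, and fell without replicate 2, with a log2 fold change of -0.60 ± 0.25 (SE, adjusted p = 0.472).

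**Figure D3:**
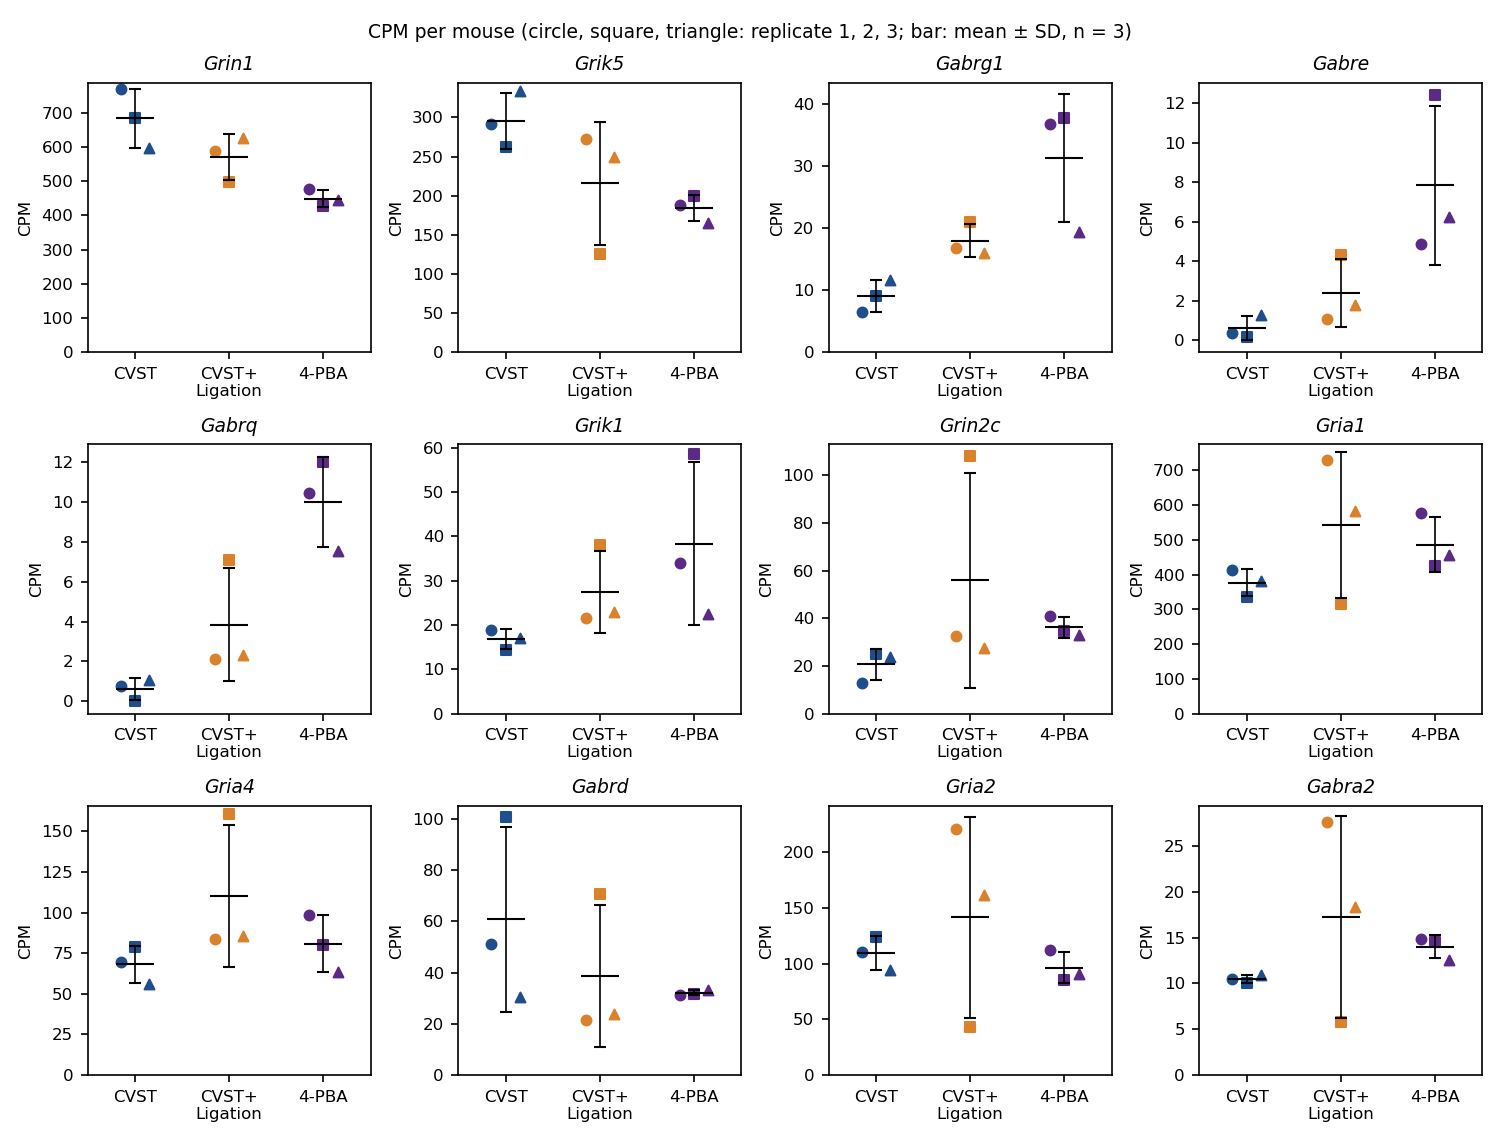
CPM (y axis, linear, starting at or just below 0) of 12 receptor genes in each mouse of the 3 groups (x axis); circles, squares and triangles are replicates 1, 2 and 3, and bars give the mean ± SD over 3 mice. Grin1 is lowest in the 4-PBA mice (427.4 to 476 CPM), Gabrq is highest in them (7.54 to 12 CPM), and the square of CVST+Ligation replicate 2 is far above its group in Grin2c (108 CPM) and below it in Gria2 (42.8 CPM).

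A typical GABAA receptor holds alpha, beta and gamma subunits, and a delta, epsilon or theta subunit can enter receptors outside or at synapses. Gabra3, an alpha subunit gene, stood between 51.7 and 114 CPM over all mice, with a mean of 58.5 CPM per 1000 bases. Gabra4, an alpha subunit that is known to join delta in receptors outside synapses, stood between 26.5 and 98.7 CPM. The beta subunit genes Gabrb1 and Gabrb2 stood between 8.96 and 20.8 CPM and between 4.39 and 30.2 CPM, and Gabrg3 between 2.52 and 9.86 CPM. None of these 5 genes was called in any comparison with all libraries.

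The GABAA genes called were Gabrg1, Gabre and Gabrq, which encode the gamma1, epsilon and theta subunits. They are known to be expressed sparsely in the adult cortex. The epsilon and theta subunits are known from hypothalamic and monoaminergic neurons. Gabrg1 stood at 6.5, 9.09 and 11.55 CPM in the CVST mice. The CVST+Ligation mice had 16.8, 20.9 and 16 CPM, and the 4-PBA mice 36.7, 37.7 and 19.4 CPM. Every CVST+Ligation and every 4-PBA mouse exceeded every CVST mouse, while 4-PBA replicate 3 lay below CVST+Ligation replicate 2.

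Gabrg1 had a log2 fold change of 0.99 ± 0.29 (SE, unadjusted p = 0.00795, adjusted p = 0.349) for CVST+Ligation against CVST. It was 1.79 ± 0.30 (unadjusted p = 0.000163, adjusted p = 0.0518) for 4-PBA against CVST. Both rises were called under all 16 alternatives. For 4-PBA against CVST+Ligation it was 0.80 ± 0.29 (unadjusted p = 0.0206, adjusted p = 1), which was lost without CVST+Ligation replicate 1 or 3 and without 4-PBA replicate 1 or 2. Leaving out CVST+Ligation replicate 2 gave 0.86 ± 0.32 against CVST (adjusted p = 0.553).

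Gabrq had 18, 0 and 20 counts in the CVST mice, 51, 138 and 53 in the CVST+Ligation mice and 193, 286 and 198 in the 4-PBA mice. These counts are 0.765, 0 and 1.08 CPM, 2.11, 7.11 and 2.33 CPM, and 10.4, 12 and 7.54 CPM. The 3 groups did not overlap. The log2 fold change was 2.65 for CVST+Ligation against CVST (SE 0.86, adjusted p = 0.381), or 1.87 (SE 0.81, adjusted p = 0.615) without CVST+Ligation replicate 2, and 4.03 ± 0.88 for 4-PBA against CVST (unadjusted p = 0.00115, adjusted p = 0.0792). For 4-PBA against CVST+Ligation it was 1.38 ± 0.76 (unadjusted p = 0.101, adjusted p = 1), which was not called, and without CVST+Ligation replicate 2 it was 2.18 ± 0.80 (adjusted p = 0.433), which was.

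Gabre had 9, 4 and 24 counts in the CVST mice, 26, 84 and 41 in the CVST+Ligation mice and 90, 295 and 164 in the 4-PBA mice. On the CPM scale these were 0.382, 0.177 and 1.3, then 1.07, 4.33 and 1.8, and 4.88, 12.4 and 6.25. The 4-PBA mice lay above all others, and CVST replicate 3 overlapped the CVST+Ligation group. The log2 fold change was 3.69 ± 0.77 (SE, unadjusted p = 0.00087, adjusted p = 0.0704) for 4-PBA against CVST and 1.72 ± 0.69 (unadjusted p = 0.0335, adjusted p = 1) for 4-PBA against CVST+Ligation. The latter was 2.46 ± 0.73 (adjusted p = 0.37) without CVST+Ligation replicate 2. For CVST+Ligation against CVST it was 1.97 ± 0.75 (unadjusted p = 0.027), but 1.24 ± 0.73 and not called without CVST+Ligation replicate 2. That call held under 11 of 15 alternatives, and those that lost it included the fits without CVST replicate 1 or 2. The rise in 4-PBA against CVST+Ligation was not called without CVST+Ligation replicate 1 or 3, nor without 4-PBA replicate 2, when its log2 fold change was 1.22. The CVST counts of Gabre and Gabrq, 0 to 24 per library, limit the precision of these fold changes, whose SEs exceed those of Gabrg1.

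Lists of region genes were counted in the same comparisons as these 3 subunits. Of 11 hypothalamic genes tested, 9 rose in 4-PBA against CVST and 8 in 4-PBA against CVST+Ligation (9 of 12 without CVST+Ligation replicate 2). In CVST+Ligation against CVST, 2 hypothalamic genes rose and 1 fell, with or without that library. The sum of all 14 on the list was 12.4 to 54.7 CPM in the CVST mice, 24.9 to 73.5 CPM in the CVST+Ligation mice and 320.9 to 643.8 CPM in the 4-PBA mice. Hcrt, the orexin gene of the lateral hypothalamus, had 0, 0 and 2 counts in the CVST mice and 441, 1321 and 1691 in the 4-PBA mice. Of 16 midbrain and brainstem genes tested, 15 rose in CVST+Ligation against CVST (12 without it) and 13 in 4-PBA against CVST. In 4-PBA against CVST+Ligation, 1 of them rose and 3 fell, and without that library 1 rose and 0 fell. The sum of all 20 on the list was 21.7 to 25 CPM in the CVST mice, 183.5 to 524 CPM in the CVST+Ligation mice and 237.6 to 252 CPM in the 4-PBA mice. Of 16 thalamic genes, 8 rose in CVST+Ligation against CVST, with or without replicate 2, 11 in 4-PBA against CVST and 5 in 4-PBA against CVST+Ligation (7 without it). The part of these lists in the rise of Gabrg1, Gabre, Gabrq and Grik1 was not tested.

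The starts of the genes with the lowest p in the comparison of 4-PBA with CVST are shown so that their sequence composition can be compared. Each window runs from 250 bases before to 50 after the RefSeq start of the gene in GRCm38.p6, written along the gene's strand, and 26 of the 41 members have such a window. The Grin1 window is chr2:25319138-25319437 (minus strand), that of Gabrg1 is chr5:70842568-70842867 (minus strand), that of Gabre is chrX:72274672-72274971 (minus strand) and that of Gabrq is chrX:72824928-72825227 (plus strand). For Gabre the RefSeq start lies inside the gene as GENCODE M21 draws it. Capitals mark matches to the GC box (GGGCGG), to the CCAAT box and to the core of the cyclic AMP response element (TGACG). A match on the other strand appears as its reverse complement.
Grin1: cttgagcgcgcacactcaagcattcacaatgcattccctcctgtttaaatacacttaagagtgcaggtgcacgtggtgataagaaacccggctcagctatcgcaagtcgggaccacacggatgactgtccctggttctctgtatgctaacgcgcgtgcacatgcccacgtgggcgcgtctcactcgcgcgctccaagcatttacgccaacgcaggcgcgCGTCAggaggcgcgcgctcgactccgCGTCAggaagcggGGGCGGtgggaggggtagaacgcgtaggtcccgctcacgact
Gabrg1: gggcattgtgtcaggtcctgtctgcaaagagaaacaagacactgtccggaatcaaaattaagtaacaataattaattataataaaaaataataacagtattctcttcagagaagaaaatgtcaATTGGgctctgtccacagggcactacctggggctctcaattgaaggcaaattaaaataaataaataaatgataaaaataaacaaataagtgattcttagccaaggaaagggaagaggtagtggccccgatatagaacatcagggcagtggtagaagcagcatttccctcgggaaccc
Gabre: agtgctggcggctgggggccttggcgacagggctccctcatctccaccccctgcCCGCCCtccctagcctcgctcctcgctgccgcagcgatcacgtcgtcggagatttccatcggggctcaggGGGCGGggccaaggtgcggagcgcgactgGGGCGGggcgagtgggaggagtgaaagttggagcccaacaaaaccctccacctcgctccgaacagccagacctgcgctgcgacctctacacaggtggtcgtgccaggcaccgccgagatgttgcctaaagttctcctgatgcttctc
Gabrq: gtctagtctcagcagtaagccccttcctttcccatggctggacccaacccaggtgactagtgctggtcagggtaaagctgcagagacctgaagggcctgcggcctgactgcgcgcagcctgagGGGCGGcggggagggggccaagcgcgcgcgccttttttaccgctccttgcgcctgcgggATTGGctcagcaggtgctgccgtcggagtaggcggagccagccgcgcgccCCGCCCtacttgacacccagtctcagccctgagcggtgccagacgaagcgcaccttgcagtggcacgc

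These windows differed in composition. The Gabrg1 window held 38.3% G and C, lower than all but 7.45% of the 32851 windows of all genes, whose median was 52.7%. The windows of Grin1, Gabre and Gabrq held 60.7%, 66.7% and 67%. GGGCGG, the GC box, occurred 3 times in the Gabre window, 2 times in that of Gabrq and 1 time in that of Grin1, and 35.7% of all windows hold it. CCAAT occurred 1 time each in the Gabrg1 and Gabrq windows (37.4% of all windows hold it), and TGACG 2 times in that of Grin1 (20.8%). TATAAA, held by 13.6% of all windows, occurred in none of the 4. The motifs searched do not overlap each other in these windows. None of the motifs searched occurred in all of the Gabrg1, Gabre and Gabrq windows.

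The called GABAA genes lie in clusters of the mouse genome (GRCm38, GENCODE M21 gene models). Gabrg1, Gabra2, Gabra4 and Gabrb1 lie within 1398 kb on chromosome 5, and Gabre, Gabra3 and Gabrq within 587 kb on the X chromosome. With all libraries Gabrg1 was called and the other 3 genes of its cluster were not, and Gabre and Gabrq were called on both sides of Gabra3, whose log2 fold changes in the 3 comparisons lay between -0.21 and -0.01. Without CVST+Ligation replicate 2, Gabra2, the neighbour of Gabrg1, was called as well, higher in CVST+Ligation against CVST and lower in 4-PBA against CVST+Ligation. The coding exons of no member overlap those of another coding gene.

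**Figure D4:**
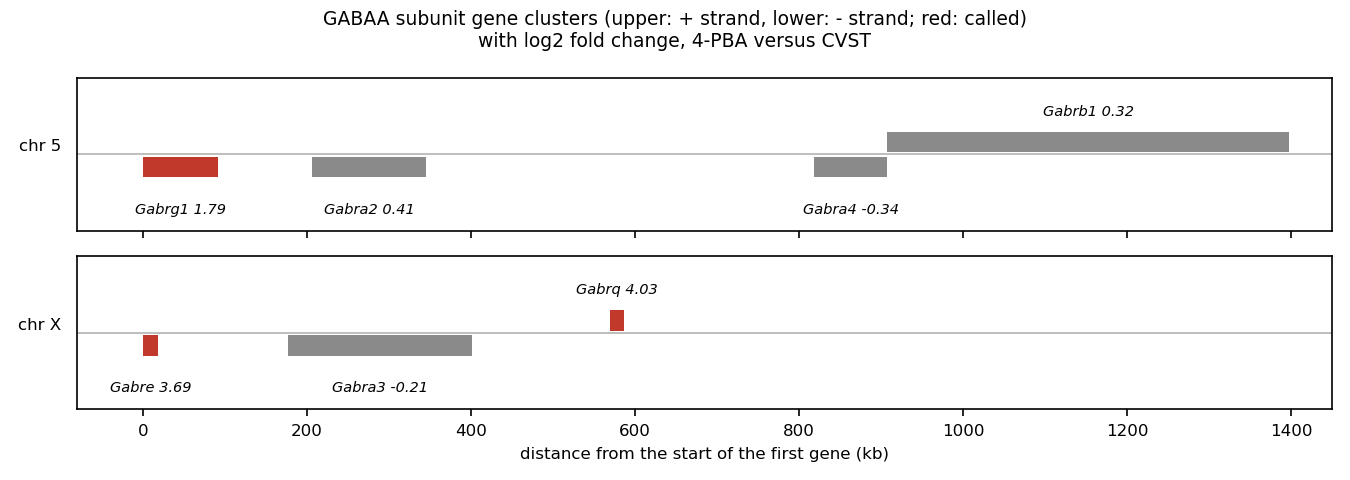
Gene positions within the GABAA clusters of chromosomes 5 and X, as distance from the start of the leftmost gene (x axis, kb), with genes on the plus strand above the line and on the minus strand below; the number beside each symbol is the log2 fold change of 4-PBA against CVST. Red marks Gabrg1 (1.79), Gabre (3.69) and Gabrq (4.03), the GABAA genes with an unadjusted p below 0.05, and grey their uncalled neighbours.

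Among the remaining GABAA genes, Gabra2 stood at 10.5, 10.1 and 10.9 CPM in the CVST mice, at 27.7, 5.77 and 18.3 CPM in the CVST+Ligation mice, and at 14.9, 14.6 and 12.6 CPM in the 4-PBA mice. The range of the CVST+Ligation group enclosed both other groups. Without CVST+Ligation replicate 2 the log2 fold change was 1.13 ± 0.21 (SE, adjusted p = 0.232) against CVST, the lowest adjusted p of a member in that comparison, and 4-PBA then fell by 0.70 against CVST+Ligation on the log2 scale. Gabrd, the subunit of tonic inhibition outside synapses, stood at 51.2, 100.6 and 30.4 CPM in the CVST mice. It was 21.6, 70.8 and 23.9 CPM in the CVST+Ligation mice, and 31.4, 31.8 and 33.2 CPM in the 4-PBA mice. Gabrd was not called with all libraries, and without replicate 2 it fell by 1.42 on the log2 scale in CVST+Ligation against CVST (SE 0.42, adjusted p = 0.422). Gabra5, an alpha subunit abundant in the hippocampus, stood at 76.9, 59.9 and 152.9 CPM in the CVST mice. It was 148.4, 44.9 and 138.6 CPM in the CVST+Ligation mice, and 86.2, 58.8 and 74.3 CPM in the 4-PBA mice. In 4-PBA against CVST+Ligation it was not called with all libraries, and without replicate 2 it fell by 0.96 on the log2 scale.

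The GABAB receptor pairs Gabbr1, which binds GABA, with Gabbr2, which couples to the G protein. Gabbr1 had the highest level of all 41 genes, with a mean of 317 CPM per 1000 bases, and the smallest SEs. It stood at 1181, 1120 and 1025 CPM in the CVST mice, at 1069, 1046 and 1100 CPM in the CVST+Ligation mice, and at 1048, 1029 and 976.8 CPM in the 4-PBA mice. The groups overlapped, and the log2 fold changes were -0.05, -0.07 and -0.12 with SEs of 0.11. Gabbr2 stood at 368.9, 293.5 and 228.9 CPM in the CVST mice, at 339.8, 236.3 and 320 CPM in the CVST+Ligation mice and at 246.7, 197.6 and 222.6 CPM in the 4-PBA mice. It was called in no comparison of all libraries, and fell in 4-PBA against CVST+Ligation without replicate 2, with a log2 fold change of -0.56 ± 0.19 (SE, adjusted p = 0.412).

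**Figure D5:**
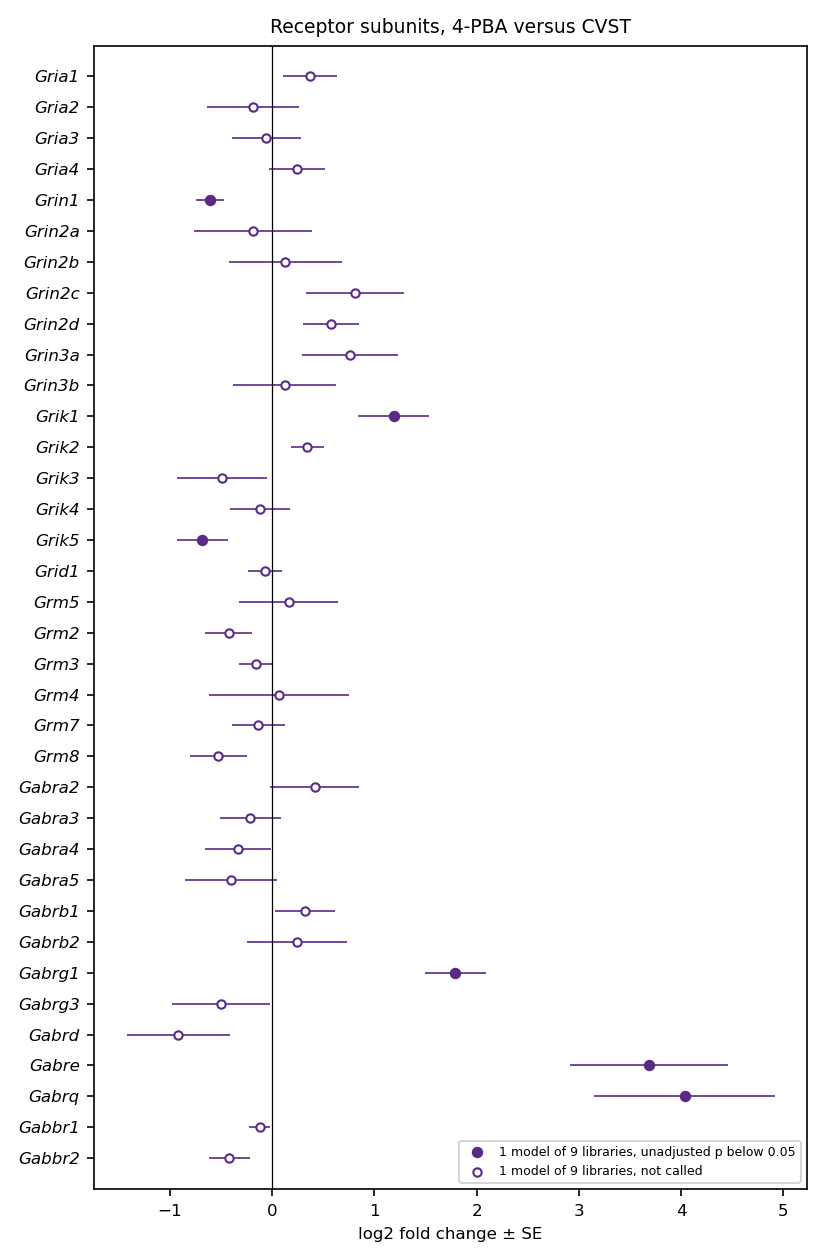
Log2 fold change (x axis) of 36 of the 41 receptor genes (rows) in 4-PBA against CVST, as edgeR estimates with bars of 1 SE; filled points have an unadjusted p below 0.05. Gabrq (4.03), Gabre (3.69), Gabrg1 (1.79) and Grik1 (1.19) lie to the right, Grin1 (-0.61) and Grik5 (-0.68) to the left, and the other 30 genes shown lie between -0.92 and 0.81.

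Sums over receptor types followed their abundant genes. The 7 NMDA genes together stood at 256.6 ± 34.1 CPM per 1000 bases (SD, n = 3) in the CVST mice, 237.7 ± 14 in the CVST+Ligation mice and 188.5 ± 15 in the 4-PBA mice. The 4-PBA values, 179.1 to 205.8, lay below all other values, which began at 221.6. The 14 GABAA genes together stood at 531.9 ± 82.5, 548.2 ± 85.4 and 493.6 ± 66.2 in the same order, with overlapping values. The 4 AMPA genes stood at 218.9 ± 12.4, 307.7 ± 103.6 and 256.2 ± 42, and CVST+Ligation replicate 2 had the lowest value of all mice (196.7) while replicate 1 had the highest (401.9).

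Genes that act with the receptors were counted in 4 lists, to be read against the shares of all genes called, 9.64% in CVST+Ligation against CVST, 3.23% in 4-PBA against CVST+Ligation and 15.4% in 4-PBA against CVST. Without CVST+Ligation replicate 2 the first share was 8.07% and the second 10%. Of 30 auxiliary subunits and scaffolds of glutamate receptors, 2 rose and 4 fell in CVST+Ligation against CVST (20%), 1 fell in 4-PBA against CVST+Ligation (3.33%), and 1 rose and 6 fell in 4-PBA against CVST (23.3%). Without the library, 1 rose and 4 fell in the first comparison (16.7%) and 8 fell in the second (26.7%). Homer1, a scaffold that links metabotropic receptors to calcium stores, stood at 164.7, 130.7 and 129 CPM in the CVST mice, at 82, 33.9 and 91 CPM in the CVST+Ligation mice and at 51.4, 71.1 and 84.9 CPM in the 4-PBA mice. Every ligated mouse lay below every CVST mouse. Its log2 fold changes were -1.04 ± 0.33 (SE, adjusted p = 0.381) and -1.03 ± 0.33 (adjusted p = 0.187) against CVST, and -0.71 ± 0.22 (adjusted p = 0.435) for CVST+Ligation without replicate 2.

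The AMPA receptor auxiliary genes Cacng3 and Gsg1l and the gene of the AMPA receptor partner Olfm2 fell by 0.60, 0.87 and 0.68 on the log2 scale in CVST+Ligation against CVST (adjusted p = 0.409, 0.383 and 0.349), and by 0.99, 1.06 and 0.91 in 4-PBA against CVST (adjusted p = 0.07, 0.128 and 0.0855). All 3 were also called without CVST+Ligation replicate 2. Shisa6, another AMPA auxiliary subunit, rose by 1.68 and 1.36 (adjusted p = 0.303 and 0.193), and by 1.77 without that library. Homer3, a relative of Homer1 abundant in the cerebellum, rose by 1.58 in CVST+Ligation against CVST and fell by 1.26 in 4-PBA against CVST+Ligation (adjusted p = 0.419 and 1). Neither was called without replicate 2. Dlg4, the scaffold PSD-95, and Neto2, a kainate receptor auxiliary subunit, fell by 0.47 and 0.61 in 4-PBA against CVST (adjusted p = 0.259 and 0.28).

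Of 16 genes of glutamate release, uptake and metabolism, 3 rose and 0 fell in CVST+Ligation against CVST (18.8%), 0 were called in 4-PBA against CVST+Ligation, and 2 rose and 2 fell in 4-PBA against CVST (25%). Without CVST+Ligation replicate 2, 2 rose in the first comparison (12.5%), and 1 rose and 2 fell in the second (18.8%). In 4-PBA against CVST the vesicular transporters moved apart. Slc17a6, the transporter of subcortical glutamate neurons, stood at 12.3, 17.6 and 13.2 CPM in the CVST mice, at 37, 134 and 53.7 CPM in the CVST+Ligation mice and at 88.5, 90.1 and 91.7 CPM in the 4-PBA mice. Slc17a7, the transporter of cortical glutamate neurons, stood at 1760, 1419 and 1973 CPM, at 1433, 418.8 and 1405 CPM and at 519.7, 566.6 and 731.5 CPM. Against CVST the 4-PBA group differed by 2.65 ± 0.42 (SE, adjusted p = 0.0518) for Slc17a6 and by -1.50 ± 0.39 (adjusted p = 0.122) for Slc17a7 on the log2 scale. In CVST+Ligation against CVST, Slc17a6 rose by 2.38 ± 0.41 (SE, adjusted p = 0.174), and by 1.66 ± 0.20 (adjusted p = 0.0454) without replicate 2. Slc17a7 was not called there, at -0.66 ± 0.39 (adjusted p = 0.607), and -0.28 without replicate 2. Neither was called in 4-PBA against CVST+Ligation with all libraries, and without replicate 2 Slc17a6 rose and Slc17a7 fell, the latter by 1.21 on the log2 scale. Both genes also belong to the region lists, Slc17a6 to that of the thalamus and Slc17a7 to that of the cortex. Among the glutamate uptake genes, Slc1a3, of astrocytes, and Slc1a6, of cerebellar Purkinje cells, rose by 0.53 and 1.84 on the log2 scale in CVST+Ligation against CVST (adjusted p = 0.405 and 0.359). Without replicate 2 these values were 0.39, not called, and 0.79, called. In 4-PBA against CVST, Glud1, glutamate dehydrogenase, rose by 0.35 on the log2 scale (adjusted p = 0.323).

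Of 11 genes of GABA synthesis, release and uptake, 4 rose and 0 fell in each comparison with CVST (36.4%), and none was called in 4-PBA against CVST+Ligation. Without CVST+Ligation replicate 2, only Slc6a11 rose in CVST+Ligation against CVST (9.09%), and 2 rose in 4-PBA against CVST+Ligation (18.2%). Slc6a11, a GABA transporter of glia, stood at 24.9, 71.5 and 46.5 CPM in the CVST mice, at 161, 288.9 and 115.9 CPM in the CVST+Ligation mice and at 267, 210.6 and 196.1 CPM in the 4-PBA mice. The ligated mice all lay above the CVST mice. Its log2 fold changes against CVST were 1.99 ± 0.41 (SE, adjusted p = 0.25) and 2.24 ± 0.41 (adjusted p = 0.0545), the first being 1.54 ± 0.37 (adjusted p = 0.342) without replicate 2. Slc12a2, a chloride importer that sets the direction of GABAA currents, rose by 0.70 and 0.87 on the log2 scale (adjusted p = 0.423 and 0.15), and the first value was 0.39 and not called without replicate 2. Aldh5a1, which breaks down GABA together with Abat, rose by 0.60 in both comparisons (adjusted p = 0.493 and 0.297), and Slc6a12, a betaine and GABA transporter, by 2.08 in CVST+Ligation (adjusted p = 0.5). Without replicate 2 the CVST+Ligation values were 0.42 and 0.71, neither called. Abat rose by 0.81 in 4-PBA against CVST (adjusted p = 0.222).

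Of 19 auxiliary subunits and scaffolds of GABA receptors, 1 rose in CVST+Ligation against CVST (5.26%), 1 in 4-PBA against CVST+Ligation (5.26%) and 2 in 4-PBA against CVST (10.5%). Without replicate 2, 0 were called in the first comparison, and 1 rose and 1 fell in the second. Hap1, a trafficking partner of GABAA receptors, rose by 1.02 in CVST+Ligation against CVST (adjusted p = 0.497) and by 1.70 in 4-PBA against CVST (adjusted p = 0.118) on the log2 scale. The first value was 0.91 (adjusted p = 0.682) and not called without replicate 2. Kctd12b, a relative of the GABAB auxiliary subunits whose CVST counts lay near the floor, rose by 1.39 in 4-PBA against CVST+Ligation (adjusted p = 1) and by 2.65 against CVST (adjusted p = 0.0989). Without replicate 2 the former was 1.47 (adjusted p = 0.534) and not called.

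The remaining lists were counted in the same way and are to be read against the same shares of all genes called. Of 13 oligodendrocyte genes 11 rose, and of 12 microglial genes 6 fell, in 4-PBA against CVST. In CVST+Ligation against CVST 1 oligodendrocyte gene rose and 8 microglial genes fell, and 0 and 6 without replicate 2. Between 4-PBA and CVST+Ligation 1 oligodendrocyte gene rose, and 9 without replicate 2, while 0 microglial genes were called either way. Oligodendrocyte sums were 2774 to 3613 CPM in the CVST mice and 4897 to 7786 CPM in the 4-PBA mice. Between 4-PBA and CVST, where 15.4% of all genes were called, 2 of 11 inhibitory neuron genes fell and 0 rose (18.2%). In the same comparison 1 of 12 astrocyte genes rose and 0 fell (8.33%), and 0 of 10 endothelial genes were called. Striatal genes fell in 16 of 18 cases in CVST+Ligation against CVST (15 without replicate 2), with sums of 1161 to 2315 CPM in the CVST mice, 303.5 to 615.3 CPM in the CVST+Ligation mice and 353.8 to 1593 CPM in the 4-PBA mice. The part of these lists in the receptor results was not tested.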

How the data were processed

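Total RNA was sequenced on a NovaSeq X Plus instrument with 1 library per mouse. The submitters' notes name fastp, HISAT2, StringTie and RSEM without versions, and the builds mm10 and GRCm38. The authors deposited the whole-number count of reads per gene symbol, without normalization. The counting program and its use of strand are not given in the sources used here. The authors also deposited a matrix that the methods call TPM and that holds FPKM values, since its columns sum to 780195 to 879696 and each value is the count per library total and gene length. The lengths equal the GENCODE M21 union of coding exons for all 41 members.

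Counts were analysed with edgeR 4.0.16 in R 4.3.3. filterByExpr kept 14746 genes, libraries were scaled by TMM, and 1 quasi-likelihood model of the 3 groups was fitted to all 9 libraries. A gene was called at an unadjusted p below 0.05, and p was adjusted by Benjamini-Hochberg over all genes. The SE is the log2 fold change divided by the square root of F. Values in every mouse are given for members called in at least 1 comparison and for the leading gene of a receptor class. Pathway genes are named if called. Members and gene lists were chosen with earlier results of these data known. A few members, pathway genes and marker genes are counted in the totals but not reported here by name. The count model was tested on simulated data. Alternatives were DESeq2 1.42.0, other scalings and filters, a model of 2 groups, a replicate block, limma 3.58.1 on log2(FPKM + 1) and log2(FPKM + 0.1), a length correction and leaving out each library. Promoter windows are from RefSeq. Plots were drawn with matplotlib 3.10.9.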

Additional observations from a re-analysis of the deposited data

How the results depend on the processing

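No called member changed direction under any alternative. For CVST+Ligation against CVST the number of receptor genes called stayed between 5 and 9 over the scalings, filters, models and tools, and between 5 and 10 when each library was left out, against 7. For 4-PBA against CVST+Ligation it was 3 in the main model. It was 5 when the model held just the 2 groups compared, 5 with the replicate block, and 0 to 13 when each library was left out. For 4-PBA against CVST it was 6, and 10 when the model held just those 2 groups, with 5 to 9 when each library was left out. The shares of all genes called in the models of just 2 groups are not given here. The counts of 5 and 10 from those models therefore cannot be read against such shares. Of the values recomputed for called genes, 95 of 109, 34 of 47 and 90 of 94 kept their call in these comparisons. With at least 10 counts required in every library, Gabre and Gabrq were not tested, and DESeq2 gave no p for 1 called gene.

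With the replicate number as a block, 9, 5 and 11 receptor genes were called in the 3 comparisons. The shares of all genes called with the block are not given here, so these counts cannot be read against them. The deviations of mice with the same number correlated with r from -0.0516 to 0.324 and exceeded 0.1 in 4 of 9 pairs, against -0.358 to 0.129 and 1 of 18 pairs with different numbers. Of the 9 mice, 3 correlated best with their own number in both other groups. Since not every pair exceeded 0.1, the numbers were not taken to pair the mice. Members passing the adjusted threshold in 4-PBA against CVST numbered 0 with edgeR and with the block, 5 with DESeq2, 2 with limma on log2(FPKM + 1), and 1 with the lowest count filter, the 2-group model or the length correction. Without CVST replicate 3 they were 3, and without 4-PBA replicate 3 they were 1. Of 120 subunit shares recomputed, 4 moved by 1 SD or more, all of them from counts without length scaling. For Gabre and Gabrq, depth limits the CVST values, which rest on 0 to 24 counts per library.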
